A study of Mus musculus with 15 samples.

Results

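Bone morphogenetic protein (BMP) signalling in the bleomycin-injured mouse lung was followed through 9 genes of the 33340 in the count table. They were 4 ligands (Bmp2, Bmp4, Bmp5 and Bmp6), the type II receptor Bmpr2, 2 extracellular regulators of the ligands (Grem1 and Bmper) and 2 target genes (Id1 and Id3). The genes were chosen by symbol, with the Ensembl identifiers translated by GENCODE M21, and all 9 were found and passed the filter on low counts, which left 17457 genes. Polyadenylated RNA of whole lungs came from male C57BL/6 mice of 10 to 12 weeks. Untreated lungs gave the day 0 group (4 libraries). Lungs taken 7, 14 and 21 days after bleomycin, a DNA-damaging drug given once into the trachea at 5 U/kg, gave groups of 4, 4 and 3 libraries. There was no vehicle group at the later days, so time since the start and bleomycin cannot be told apart. The title of day 0 replicate 4 calls it a control while its treatment field names bleomycin, and it was kept in the day 0 group. The design text of the series gives 3 replicates for each time point, whereas the titles name 4 libraries on days 0, 7 and 14, and the titles were followed. The labels do not say that each library was a separate mouse, so the p-values measure the spread between these libraries.

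BMP ligands are secreted dimers that bring type I and type II receptors together, and the receptors then phosphorylate Smad1, Smad5 and Smad9, which enter the nucleus with Smad4 and switch on genes such as Id1 and Id3. Gremlin 1 and other secreted antagonists bind ligands outside the cell and keep them from the receptors. In the lung the pathway is best known for the pulmonary vessels, where loss-of-function mutations of BMPR2 cause heritable pulmonary arterial hypertension, and for branching of the developing airways.

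The RefSeq promoter table, on GRCm38.p6, held 7 of the 9 genes (not Bmp2 and Id1). The 250 bases upstream of the start site are shown for both extracellular regulators, which carried the largest rises, and for Bmp4, a ligand that passed the test at no day. Capitals mark CAGAC or its reverse complement GTCTG, the core Smad-binding letters, and GGCGCC, a GC-rich Smad element that reads the same on both strands. No match of one overlapped a match of the other.

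Grem1 (chr2:113758649-113758898, minus strand): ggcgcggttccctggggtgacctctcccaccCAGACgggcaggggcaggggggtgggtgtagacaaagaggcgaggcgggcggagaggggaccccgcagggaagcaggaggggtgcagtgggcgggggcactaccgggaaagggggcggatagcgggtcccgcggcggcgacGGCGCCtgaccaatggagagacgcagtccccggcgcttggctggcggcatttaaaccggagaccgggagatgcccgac

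Bmper (chr9:23222826-23223075, plus strand): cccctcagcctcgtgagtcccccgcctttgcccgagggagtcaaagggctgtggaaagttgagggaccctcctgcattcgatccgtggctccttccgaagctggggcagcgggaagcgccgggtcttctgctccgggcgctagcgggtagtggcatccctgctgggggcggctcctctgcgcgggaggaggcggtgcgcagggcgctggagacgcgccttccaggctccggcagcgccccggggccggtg

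Bmp4 (chr14:46390670-46390919, minus strand): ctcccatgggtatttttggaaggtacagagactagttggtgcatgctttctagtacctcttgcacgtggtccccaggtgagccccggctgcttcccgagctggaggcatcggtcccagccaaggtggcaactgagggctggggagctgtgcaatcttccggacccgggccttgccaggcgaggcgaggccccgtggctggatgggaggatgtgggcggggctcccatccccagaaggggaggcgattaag

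The Grem1 window held both motifs, and the Bmper and Bmp4 windows held neither. Over all 7 genes, CAGAC or GTCTG occurred in the windows of Bmp5, Bmp6, Grem1 and Id3, and GGCGCC in those of Bmpr2 and Grem1. Of 32851 promoter windows of the same length, 42.2% held the first motif and 9.59% the second. The counts say nothing of binding. The windows of Bmp6, Bmpr2 and Id3 lie wholly in annotated exons, and that of Bmp5 holds 1 exonic base, so these are not printed.

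Total counts were 15652008 to 18020661 per library. Lung markers were present throughout, but those of alveolar type 2 cells were lower on days 14 and 21, in CPM (a gene's reads relative to the reads of its library, with TMM factors). The summed level of 5 alveolar type 2 markers was 21572 to 31334 CPM on day 0, 14298 to 21833 on day 7, 6063 to 17779 on day 14 and 3738 to 7974 on day 21, with 0, 3 and 5 of the 5 lower at the later days. The sum of 3 airway markers was lower from day 7, at 24724 to 31365 CPM on day 0, 8174 to 10465 on day 7, 2717 to 6836 on day 14 and 1360 to 4923 on day 21. Most of this sum was Scgb1a1, with up to 492867 counts in a library, beside 2818 for Foxj1 and 142 for Krt5. Of the airway markers 2 were tested, and 1, 2 and 1 were lower at the later days. Of 4 lymphocyte markers 3 and 2, and of 4 adipose markers 4 and 3, were lower on days 14 and 21. The part of these markers in the results was not tested. Libraries differed in the share of counts from 16 mitochondrial genes, 2.03% to 4.22%. All 4 day 7 libraries were under 2.5%, day 0 had 2 under 2.5% and 2 over 3.5%, day 14 had 1 and 3, and the day 21 libraries held 2.66% to 4.01%, so the share and the day can be told apart only in part. The 4 cardiac muscle markers summed to over 100 CPM in 4 libraries (day 0 replicates 3 and 4, day 7 replicate 4 and day 21 replicate 1), up to 595 CPM. Of 8 fibroblast markers, 4 were higher at each later day against day 0, and 0, 2 and 2 were lower on days 7, 14 and 21.

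Against day 0, 3 of the 9 genes changed on day 7, 5 on day 14 and 4 on day 21. A gene was counted as changed at an adjusted p under 0.05 by edgeR's quasi-likelihood test and a fold change over 1.5. The background was 16.1% of all genes tested on day 7, 23.1% on day 14 and 22.5% on day 21, against 33.3%, 55.6% and 44.4% of the 9 genes. Bmp2 and Bmp6 were lower and Bmper higher at all 3 days, Bmpr2 was lower on day 14, and Grem1 was higher on days 14 and 21. Bmp4, Bmp5, Id1 and Id3 passed at none of the 3 days. The median log2 fold change of the 9 was -0.17, 0.04 and -0.23 on days 7, 14 and 21, beside 0.01, 0.02 and 0.02 for all genes tested. Without the 4 libraries with cardiac markers the counts of changed genes were 0, 5 and 1. In a fit that also held the mitochondrial share they were 0, 5 and 4. Over all alternatives the day 7 count was 0 to 4 and the day 14 count 4 to 6.

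**Figure D1:**
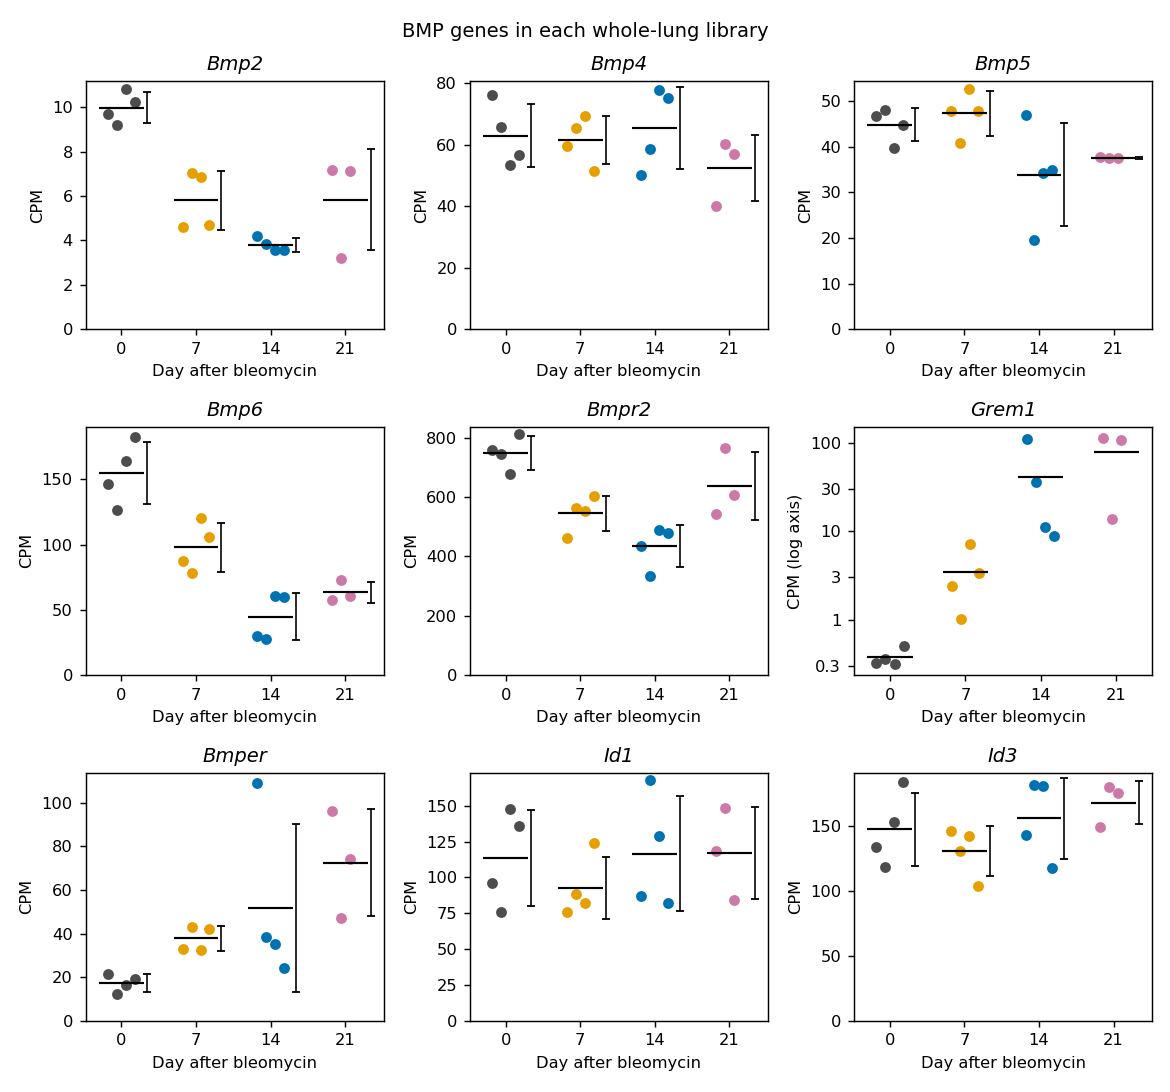
CPM of the 9 genes in each library (points) by day after bleomycin, with the group mean (line) and SD (bar; not drawn for Grem1, whose axis is logarithmic). Bmp6 and Bmp2 lie lower at every later day than in any day 0 library, Grem1 and Bmper higher, and Bmp4, Id1 and Id3 overlap with day 0.

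Among the ligands, Bmp6 fell most on days 14 and 21, and Bmp2 on day 7. Bmp6 encodes a ligand known for control of iron through hepcidin and is also made by endothelial and stromal cells. Its exons lie on chromosome 13 (38345107 to 38500302 on mm10, plus strand). In day 0 replicates 1 to 4 it was at 146, 127, 164 and 183 CPM. On day 7 it was at 87.5, 78.2, 121 and 105 CPM. No day 7 library reached the lowest day 0 library, and the groups did not overlap. On day 14 the libraries held 30.2, 27.8, 60.6 and 60.1 CPM, and on day 21 they held 57.1, 72.6 and 60.5 CPM. All 7 of these lay below every day 7 library. The log2 fold change was -0.66 (SE 0.23, edgeR adjusted p 0.0475) on day 7, -1.79 (SE 0.24, adjusted p 5.7e-05) on day 14 and -1.29 (SE 0.26, adjusted p 0.00168) on day 21. The day 7 call was lost in 6 of the 8 fits that left out 1 library (it held without day 0 replicate 2 or day 7 replicate 3) and in the fit that held the mitochondrial share (-0.37, adjusted p 0.39), and among libraries with a share under 2.5% (-0.50, adjusted p 0.063). It was also lost with total counts as the scale (adjusted p 0.0532) and without the libraries with cardiac markers (-0.56, adjusted p 0.29). The day 21 call was lost without the libraries with cardiac markers (-1.07, adjusted p 0.0623).

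Bmp2, a ligand of bone and heart development, was the least abundant of the 4 ligands. On chromosome 2 (133552159 to 133562885, plus strand), it was at 9.71, 9.19, 10.8 and 10.2 CPM on day 0. The day 7 libraries held 4.59, 7.03, 6.87 and 4.70 CPM, and the day 14 libraries 4.19, 3.83, 3.55 and 3.56 CPM. On day 21 replicates 1 and 3 were at 7.17 and 7.12 CPM and replicate 2 at 3.19 CPM. None of the 11 libraries taken after bleomycin reached the day 0 range. Its log2 fold change was -0.78 (SE 0.23, edgeR adjusted p 0.0232) on day 7, -1.40 (SE 0.24, adjusted p 0.000426) on day 14 and -0.78 (SE 0.25, adjusted p 0.0299) on day 21. The call on day 14 held in all 21 alternative fits. The day 7 call was lost when replicate 1 or 4 of that day was left out and with the mitochondrial term (-0.78, adjusted p 0.0957). It was also lost among libraries with a mitochondrial share under 2.5% (-0.72, adjusted p 0.0589) and without the libraries with cardiac markers (-0.66, adjusted p 0.199). For day 21 it was lost without day 0 replicate 3 (adjusted p 0.0503) and in the fit of both groups alone (adjusted p 0.0592). It was also lost without replicate 2 of day 21, where the value was -0.52 (adjusted p 0.0937), and without the libraries with cardiac markers (-0.91, adjusted p 0.0964). Under glmTreat the calls of day 7 (adjusted p 0.498) and day 21 (adjusted p 0.4) were both lost.

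Bmp4, the ligand that patterns the growing lung tip and acts in the pulmonary vessels, showed no call in any comparison. It lies on chromosome 14 (46383520 to 46390669, minus strand). Its levels were 76.1, 65.6, 53.3 and 56.5 CPM on day 0, 59.4, 65.5, 69.2 and 51.4 on day 7, 50.1, 58.7, 77.8 and 75.2 on day 14, and 40.1, 60.2 and 57.0 on day 21. The groups overlapped at all 3 later days. The log2 fold changes against day 0 were -0.04 (95% interval -0.39 to 0.32), 0.06 (-0.29 to 0.41) and -0.26 (-0.64 to 0.12), with edgeR adjusted p values of 0.898, 0.820 and 0.299.

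Bmp5, a ligand close to Bmp6 in sequence, passed the test at no day. It was at 39.8 to 48.0 CPM on day 0 and 40.7 to 52.7 on day 7. On day 14 replicate 1 held 47.0 CPM, replicate 2 held 19.5, and the others 34.3 and 34.8. On day 21 the 3 libraries lay between 37.4 and 37.8 CPM, just under the lowest day 0 library. The log2 fold change was 0.08 (95% interval -0.31 to 0.46), -0.40 (-0.79 to -0.02) and -0.25 (-0.67 to 0.17) on days 7, 14 and 21, with edgeR adjusted p values of 0.786, 0.102 and 0.361. Without day 14 replicate 1 the day 14 value was -0.62 and passed (adjusted p 0.0113). The exons of Bmp5 overlap those of Gm26903 on the opposite strand over 1878 bases, and overlaps of 224 bases with Txndc5 and 89 bases with Gm15217 exist for Bmp6 and Bmp4. The library kit did not mark the strand, so reads from such stretches cannot be told apart.

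The ligands' shares of their summed transcripts were compared per length, as CPM per kb of exon (a level on a scale that allows genes to be compared). The sum over the 4 ligands was 76.2 to 85.9 on day 0, 61.3 to 76.7 on day 7, 39.1 to 59.6 on day 14 and 43.9 to 55.6 on day 21. Bmp6 made up 48.6% ± 6.23 of it on day 0 (SD, n = 4) and 38.0% ± 4.47 on day 7 (n = 4). Its share was 22.2% ± 4.66 on day 14 (n = 4) and 32.2% ± 2.13 on day 21 (n = 3). Bmp4 made up 34.3% ± 5.34 on day 0, 41.6% ± 4.75 on day 7, 58.5% ± 6.10 on day 14 and 45.8% ± 4.46 on day 21. Bmp6 thus had the larger share in each day 0 library and Bmp4 in each library of days 14 and 21. On day 7 Bmp4 had the larger share in replicates 1 and 2, and the other two libraries were at 40.1% and 36.2% for Bmp4 and 40.3% and 42.8% for Bmp6. Bmp2 stayed between 1.62% and 4.59% in all libraries. This summary was chosen after the values were seen and has no test.

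**Figure D2:**
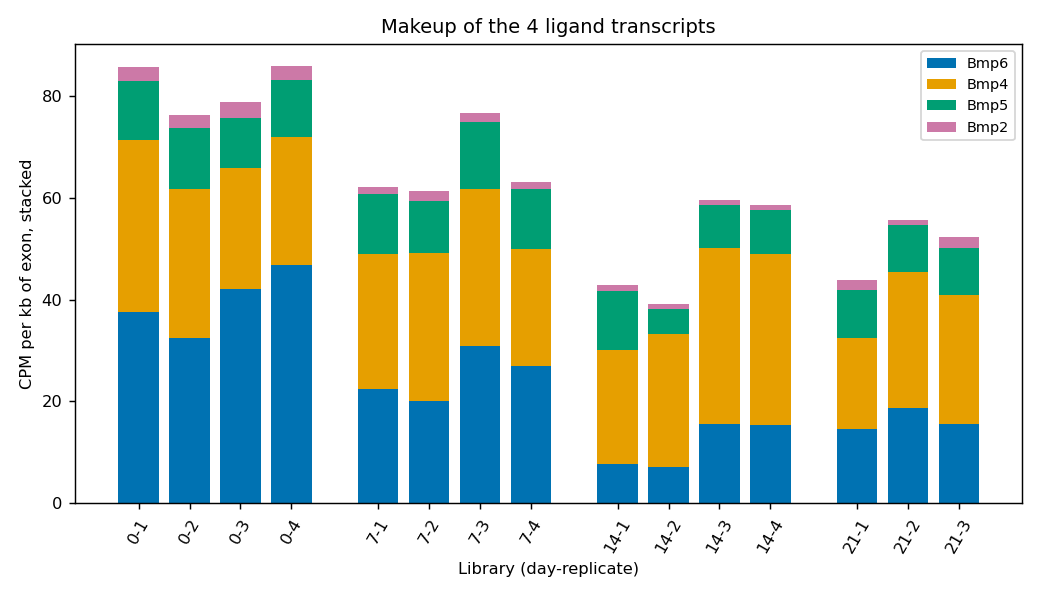
Stacked level of the 4 ligand transcripts in each library, as CPM per kb of exon, with libraries named by day and replicate. The Bmp6 part (bottom) shrinks from 48.6% on average on day 0 to 22.2% on day 14, while the Bmp4 part above it keeps about the same height.

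Bmpr2, the type II receptor that carries the mutations of heritable pulmonary hypertension, was lower on day 14. It lies on chromosome 1 (59763400 to 59879014, plus strand), and its level was 758, 745, 676 and 812 CPM on day 0. On day 7 the libraries held 461, 564, 553 and 601 CPM, on day 14 they held 434, 335, 488 and 480, and on day 21 they held 541, 764 and 607. All libraries of days 7 and 14 were below the day 0 range, and on day 21 replicate 2 was inside it. In the fit, the log2 fold change was -0.46 (SE 0.14, edgeR adjusted p 0.0299) on day 7, a fold of 1.37 that is under the threshold of 1.5. It was -0.78 (SE 0.14, adjusted p 0.000772) on day 14 and -0.23 (SE 0.16, adjusted p 0.285) on day 21. Of the alternatives, only glmTreat lost the day 14 call (adjusted p 0.18). Between days 14 and 21 the log2 difference was 0.55 (SE 0.15), without overlap of the groups, but it failed the adjustment (adjusted p 0.292). Endothelial cells express the receptor strongly. The summed level of 10 endothelial markers was 3474 to 4101 CPM on day 0, 2410 to 3162 on day 7, 1901 to 3219 on day 14 and 2470 to 3085 on day 21, with 4, 4 and 2 of the 10 lower and none higher on days 7, 14 and 21. From day 14 to day 21 none of the 10 passed, and their median log2 difference was 0.04. The 4 arterial endothelial markers Gja5, Gja4, Sox17 and Efnb2 summed to 355 to 504 CPM on day 0, 287 to 347 on day 7, 304 to 503 on day 14 and 508 to 540 on day 21, with 0, 2 and 2 of them higher and 1, 1 and 0 lower against day 0. Of 4 aerocyte (alveolar capillary) markers 1, 2 and 3 were lower and none higher, with sums of 450 to 573 CPM on day 0 and 275 to 359 on day 14. Of 4 general capillary markers 1 was lower at each later day and none higher, with sums of 806 to 960 CPM on day 0 and 510 to 750 on day 14. The part of any of these lists in the Bmpr2 result was not tested. In whole tissue, fewer cells of a type and less RNA per cell cannot be told apart.

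Grem1, a secreted antagonist of BMP2 and BMP4 made by fibroblasts, had the largest rise of the 9 genes. It lies on chromosome 2 (113746164 to 113758646, minus strand), and its upstream sequence is the first of those printed above. The day 0 libraries held 0.324, 0.363, 0.317 and 0.502 CPM, which are only 5 to 9 reads. On day 7 they held 2.38, 1.005, 7.14 and 3.33 CPM, on day 14 they held 109, 35.6, 11.1 and 8.87, and on day 21 they held 112, 13.6 and 106. Each later day lay wholly above day 0, and days 14 and 21 lay wholly above day 7, although libraries of 1 day differed widely. Its log2 fold change was 3.17 (SE 1.15, edgeR adjusted p 0.0549) on day 7, just short of the threshold. It was 6.73 (SE 1.07, adjusted p 0.000249) on day 14 and 7.64 (SE 1.10, adjusted p 0.000135) on day 21, or 106-fold and 199.7-fold. Without day 14 replicate 1 the day 14 value was 5.55 (adjusted p 0.000378), and without day 7 replicate 3 the day 7 value was 2.53. DESeq2 passed the day 7 value (adjusted p 0.00278), and the mitochondrial covariate lowered it to 2.22 (adjusted p 0.265). Among libraries with a mitochondrial share under 2.5% it was 3.29 and passed (adjusted p 0.0251).

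Bmper, a secreted protein that binds BMPs and can restrain or aid their signal in endothelial cells, was higher at all 3 days. It lies on chromosome 9 (23223076 to 23485200, plus strand), and it was at 21.5, 12.2, 16.4 and 19.3 CPM on day 0. On day 7 it was at 33.1, 43.2, 32.5 and 42.2 CPM, on day 14 at 109, 38.4, 35.4 and 24.4, and on day 21 at 96.2, 47.0 and 74.3. The groups did not overlap with day 0 at any later day, and day 14 replicate 1 stood apart from the rest of its day. The log2 fold change was 1.12 (SE 0.37, edgeR adjusted p 0.0377) on day 7, 1.58 (SE 0.37, adjusted p 0.00459) on day 14 and 2.06 (SE 0.39, adjusted p 0.00122) on day 21. The day 7 call was lost in 7 of the 8 fits that left out 1 library (adjusted p 0.0501 to 0.0974 in those, and it held without day 0 replicate 1) and in the fit with the mitochondrial term (0.68, adjusted p 0.338), and it held among libraries with a mitochondrial share under 2.5% (1.15, adjusted p 0.0106). It was also lost without the libraries with cardiac markers (1.07, adjusted p 0.229) and under glmTreat (adjusted p 0.281). Without day 14 replicate 1 the day 14 value was 0.89 (adjusted p 0.0113), and without the libraries with cardiac markers the day 21 value was 1.82 (adjusted p 0.0539).

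**Figure D3:**
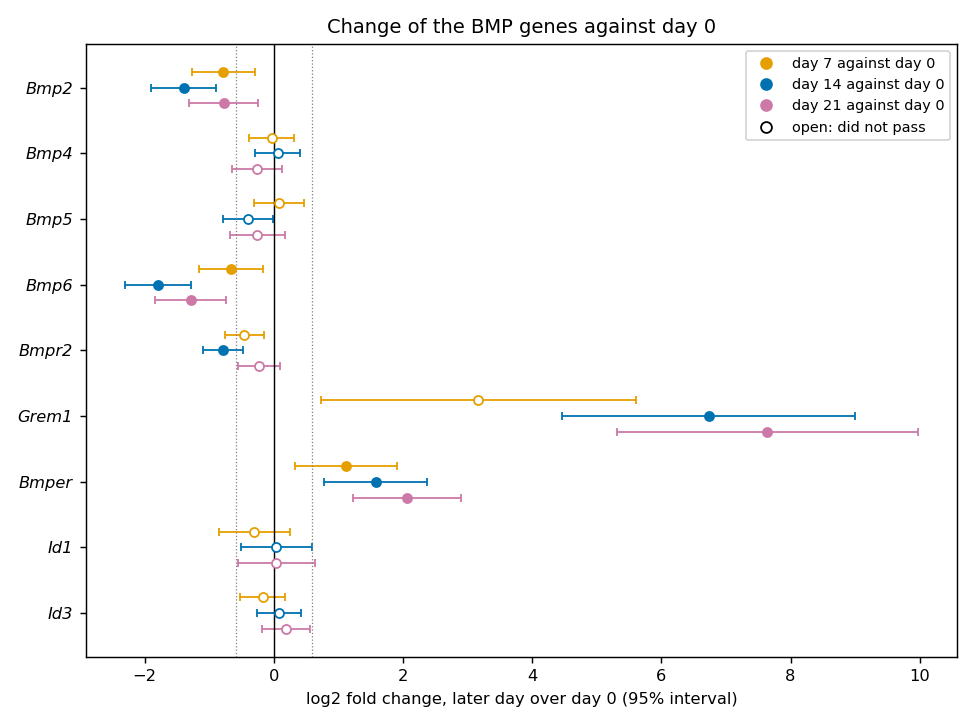
Log2 fold change of each gene against day 0 with its 95% interval from the edgeR fit (filled points passed the test; dotted lines mark a fold of 1.5). Grem1 reaches 7.64 on day 21 with wide intervals, Bmp6 reaches -1.79 on day 14, and the intervals of Id1 and Id3 include 0 at all 3 days.

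On days 14 and 21, but not on days 0 and 7, the libraries held Grem1 and Bmper in the order of their activated fibroblast markers. On day 14 the summed level of the activated fibroblast markers Cthrc1, Postn and Tnc was 1373, 616, 503 and 407 CPM in replicates 1 to 4, the same order as Grem1 and Bmper in those libraries. On day 21 it was 1112, 467 and 797 CPM, again in the order of both genes. The wider list of 8 fibroblast markers summed to 13577, 4955, 5516 and 4111 CPM on day 14. There replicate 3 was above replicate 2, unlike both genes. On day 21 that list summed to 9707, 5389 and 8750 CPM, in the order of both genes. All 3 activated fibroblast markers were higher on days 14 and 21 against day 0, and 1 of 3 was on day 7. On day 7 the sums were 491, 389, 442 and 570 CPM, and replicate 2, with the lowest sum, held the highest Bmper level and the lowest Grem1 level. On day 0 replicate 4, with the lowest sum (179 CPM), held the highest Grem1 level. Smooth muscle markers (5 genes) summed to 1024, 569, 513 and 414 CPM on day 14 and 922, 350 and 744 on day 21, in the same order, beside 260 to 350 CPM on day 0, with 1, 1 and 2 of them higher at the later days. Macrophage markers (5 genes) summed to 672 to 987 CPM on day 0 and to 2159, 3557, 1090 and 1026 on day 14 and 2601, 1248 and 1719 on day 21, with 2, 3 and 2 higher and 0, 0 and 1 lower. The part of these cells in the result was not tested. The day 14 replicates 3 and 4 had marker sums within the day 7 range of 389 to 570 CPM, while their Grem1 levels of 11.1 and 8.87 CPM were above all day 7 libraries. Bmper in the same 2 libraries, 35.4 and 24.4 CPM, was not above the day 7 range. In reads, Postn held at least 2865 in every library, while Cthrc1 and Tnc went down to 44 and 100. The sum thus leans on Postn where the others are low, and like sums need not mean like levels of each marker.

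**Figure D4:**
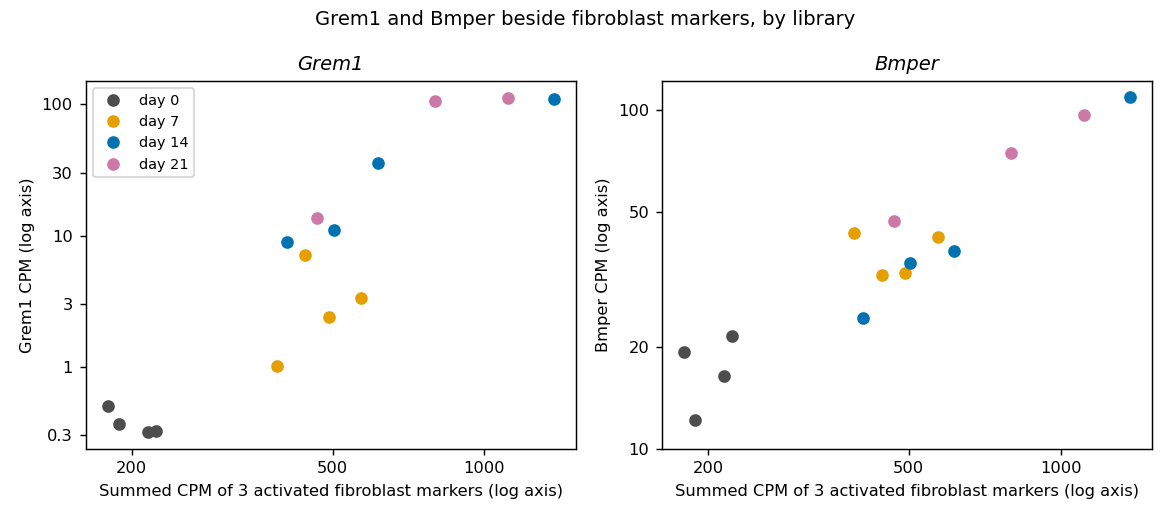
Level of Grem1 (left) and Bmper (right) in each library against the summed CPM of Cthrc1, Postn and Tnc, both axes logarithmic, coloured by day. The libraries with marker sums of 797, 1112 and 1373 CPM hold the 3 highest levels of both genes, and the day 0 libraries, with sums of 179 to 223 CPM, sit lowest.

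Per length, Grem1 was set beside the ligands it is known to bind. Its level over that of Bmp2 plus Bmp4, both as CPM per kb, was 0.00213 to 0.00432 on day 0 and 0.00779 to 0.0527 on day 7. On day 14 the ratio was 1.12, 0.316, 0.0752 and 0.0621 in replicates 1 to 4, and on day 21 it was 1.36, 0.119 and 0.936. In 2 of the 15 libraries the antagonist's transcripts therefore outnumbered those of both ligands together. This ratio too was chosen after the values were seen.

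Id1 and Id3, which encode inhibitors of basic helix-loop-helix transcription factors and are direct Smad targets, did not pass at any day. Id1, on chromosome 2 (152736251 to 152737410, plus strand), was at 95.9, 75.9, 147 and 136 CPM on day 0 and at 75.8, 88.1, 81.9 and 124 on day 7. On day 14 it was at 86.8, 168, 129 and 82.4 CPM, and on day 21 at 119, 148 and 84.1. The groups overlapped at each day, and the spread within day 0 was as wide as that between days. Its log2 fold change was -0.30 (95% interval -0.85 to 0.25, edgeR adjusted p 0.422) on day 7, 0.04 (-0.52 to 0.59, adjusted p 0.932) on day 14 and 0.04 (-0.55 to 0.63, adjusted p 0.930) on day 21. A fall of 1.5-fold on day 7 and a rise of 1.5-fold on days 14 and 21 are inside these intervals. The day 0 libraries with the higher Id1 levels, replicates 3 and 4, were those with a mitochondrial share of 4.22% and 4.04%, against 2.28% and 2.31% in replicates 1 and 2. Among libraries under 2.5%, the day 7 value was 0.09 (adjusted p 0.778), and among libraries over 3.5% the day 14 value was -0.17 (adjusted p 0.700). Both of these day 0 libraries also held cardiac markers over 100 CPM, and without the libraries with such markers the value was -0.11, 0.41 and 0.40 on days 7, 14 and 21 (adjusted p 0.856, 0.322 and 0.443).

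Id3, on chromosome 4 (136143497 to 136145755, plus strand), was at 134, 118, 153 and 184 CPM on day 0. It was at 146, 131, 142 and 104 CPM on day 7, at 143, 181, 181 and 117 on day 14, and at 149, 180 and 175 on day 21. Each later group overlapped with day 0, while all day 21 libraries lay above all day 7 libraries. The log2 fold change was -0.17 (95% interval -0.52 to 0.17, edgeR adjusted p 0.462), 0.08 (-0.27 to 0.43, adjusted p 0.742) and 0.19 (-0.18 to 0.56, adjusted p 0.448) on days 7, 14 and 21, so that a rise or fall of more than 1.5-fold lies outside all 3 intervals of this fit. Without the libraries with cardiac markers the day 21 value was 0.46 (SE 0.19, adjusted p 0.128), and a rise of 1.5-fold was within reach of its error.

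In the order of levels per length on day 0, Id1 and Id3 stood first, at 98.1 ± 28.9 and 82.2 ± 15.7 CPM per kb (SD, n = 4), and their libraries overlapped. Bmpr2 (41.6 ± 3.11), Bmp6 (39.7 ± 6.13) and Bmp4 (28.0 ± 4.54) came next, with each neighbour in this order overlapping. Bmp5 followed at 11.1 ± 0.894, then Bmper at 3.59 ± 0.834 and Bmp2 at 2.81 ± 0.193, which overlapped, and Grem1 was last at 0.0908 ± 0.0208. The gaps between Id3 and Bmpr2, Bmp4 and Bmp5, Bmp5 and Bmper, and Bmp2 and Grem1 were free of overlap. On day 21 the first 2 places were as on day 0, Bmp2 had become the lowest at 1.64 ± 0.642 (n = 3), and Grem1 stood between Bmp4 and Bmp6 at 18.7 ± 13.3, overlapping with both. Id1, Id3, Bmpr2 and Bmp6 took other places on day 0 when length was left out.

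Later days were also compared with each other. From day 7 to day 14, 2 of the 9 genes changed (22.2%), beside 6.0% of all genes tested. Bmp6 was lower by a log2 fold change of -1.13 (SE 0.23, edgeR adjusted p 0.0147), and Grem1 was higher by 3.56 (SE 0.81, adjusted p 0.0203). The Grem1 call was lost without day 7 replicate 1 (adjusted p 0.0569) or replicate 4 (adjusted p 0.0612) and under limma voom (adjusted p 0.125). It was also lost without the libraries with cardiac markers (3.555, adjusted p 0.0727). Under glmTreat both the Grem1 call (adjusted p 0.11) and the Bmp6 call (adjusted p 0.207) were lost. Without day 14 replicate 1 the Grem1 value was 2.41 (adjusted p 0.0383). Leaving out day 7 replicate 3 raised it to 4.20, and the Grem1 difference from day 7 to day 21 to 5.11. Bmp2 did not pass (-0.62, adjusted p 0.12), though the groups did not overlap. From day 7 to day 21, Grem1 alone of the 9 passed (11.1%, beside 9.54% of all genes tested), with a log2 fold change of 4.48 (SE 0.86, adjusted p 0.00574). Bmp6 (-0.63, adjusted p 0.109) and Bmper (0.94, adjusted p 0.113) did not, and both passed when days 7 and 21 were fitted alone. The Grem1 call from day 7 to day 21 was lost without the libraries with cardiac markers (4.09, adjusted p 0.0671). From day 14 to day 21 none of the 9 passed by edgeR, DESeq2 or limma voom, beside 0.0% of all genes tested by edgeR. At an unadjusted p under 0.05 there were 2, Bmp2 and Bmpr2, both with a higher level on day 21 (0.62 and 0.55). Grem1 had a log2 fold change of 0.91 with an interval of -0.68 to 2.51.

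The groups of the 9 genes that did not overlap with day 0 numbered 5 at each later day, beside 30.8%, 31.1% and 35.5% of all genes tested on days 7, 14 and 21. There were 3 such genes from day 7 to 14 (Bmp2, Bmp6 and Grem1) and 5 from day 7 to 21 (Bmp5, Bmp6, Grem1, Bmper and Id3), beside 16.3% and 28.0% of all genes.

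Other genes of the pathway were read from a list of 49, grouped by role, of which 41 passed the filter. Against day 0, 12 of the 41 changed on day 7 (29.3%), 21 on day 14 (51.2%) and 18 on day 21 (43.9%), beside the same 16.1%, 23.1% and 22.5% of all genes. Of these, 7 were higher and 5 lower on day 7, 7 higher and 14 lower on day 14, and 11 higher and 7 lower on day 21. The median log2 fold change of the list was -0.10, -0.38 and -0.17. In all, 27 of the genes changed at 1 day or more, 13 upward and 14 downward, and none changed in both directions. Without the libraries with cardiac markers 8, 22 and 10 changed, and with the mitochondrial covariate 6, 21 and 19.

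The extracellular antagonists and modulators other than Grem1 and Bmper held the largest rise of the list, that of Fst. Of 12 tested, 4 rose on day 7, 6 rose and 2 fell on day 14, and 6 rose and 1 fell on day 21. These were 33.3%, 66.7% and 58.3% of the 12, beside 16.1%, 23.1% and 22.5% of all genes. Fst encodes follistatin, which binds activins and some BMPs, and it was at 2.62 to 4.96 CPM on day 0. It was at 16.0 to 47.6 CPM on day 7, 30.7 to 175 on day 14 and 70.9 to 160 on day 21. Its log2 fold change was 2.91, 4.45 and 4.69 (SE 0.55 to 0.59). On day 14 replicates 1 and 2 held 175 and 109 CPM and the others 30.7 and 32.9, and without replicate 1 the value was 3.83. Its relatives Fstl1 (1.47, 2.16 and 2.35) and Fstl3 (1.01, 1.15 and 1.28) rose at all 3 days as well. On day 7 the Fstl3 call was lost in 3 of 21 alternatives and the Fst call in 1 of 21. Nog, which encodes the BMP antagonist noggin, was at 0.391 to 1.36 CPM on day 0, 3.68 to 15.2 on day 14 and 5.41 to 9.40 on day 21. Its log2 fold change was 3.21 on day 14 and 3.17 on day 21, and 1.38 on day 7, which did not pass (edgeR adjusted p 0.0657). Day 14 replicate 1 was the highest library, and without it the day 14 value was 2.53.

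Chrdl1, a chordin-like antagonist, fell on days 14 (-1.17) and 21 (-1.21), and Nbl1 fell on day 14 (-0.61). Chrd (1.08 on day 21), Kcp (0.87 on day 14) and Chrdl2 (1.75, 1.53 and 1.76) rose, the last at under 1.4 CPM in every library. Exons of Fstl3, Chrd, Fst and Kcp overlap other genes by up to 1157 bases.

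Inside the cell and at its membrane, 3 of 5 inhibitors fell on day 14, where 23.1% of all genes changed. Bambi, a membrane pseudoreceptor that blocks the type I receptor, was at 22.7 to 44.2 CPM on day 0, 10.995 to 17.5 on day 7, 9.18 to 11.2 on day 14 and 7.18 to 10.1 on day 21. It fell by 1.19, 1.70 and 1.85 on the log2 scale. Smad6, the inhibitory Smad that BMP signals themselves induce, fell on day 14 (-1.09). Its day 7 fall (-0.65) was lost in 6 of the 8 fits with 1 library left out, and it missed on day 21 (-0.67, edgeR adjusted p 0.0512). Smurf2, a ubiquitin ligase for Smads and receptors, fell on day 14 (-0.61), and its relative Smurf1 rose on day 21 (0.63, lost in 4 of 7 such fits). Among the carriers of the signal, Smad9 fell at all 3 days (-1.18, -1.58 and -1.41) and Smad1 rose on day 21 (0.65). Smad4 and Smad5 passed at no day.

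Of 9 other receptors and co-receptors, none changed on day 7, 4 fell on day 14, 2 fell on day 21 and none rose. These were 44.4% and 22.2% of the receptors on days 14 and 21, beside 23.1% and 22.5% of all genes, so that the day 21 share was near the background. Eng, the endothelial co-receptor endoglin, was at 557 to 670 CPM on day 0 and 254 to 459 on day 14, and it fell on days 14 (-0.80) and 21 (-0.62). Acvrl1, the endothelial type I receptor ALK1, fell on day 14 (-0.61), as did Bmpr1b (-0.96). Rgma, a membrane-anchored co-receptor, fell on days 14 (-0.91) and 21 (-0.94). Exons of Acvrl1, Eng and Rgma overlap other genes by 61 to 258 bases. The endothelial marker sums given with Bmpr2 apply here too. Among the other ligands, Gdf6 rose at all 3 days (1.92, 3.09 and 3.27). Its day 21 replicate 3 held 14.3 CPM and the others 4.76 and 6.44, and without replicate 3 the value was 2.62. Bmp7 rose on days 7 and 21 (1.21 and 1.35) from about 1 CPM, and Bmp3 fell on days 14 and 21 (-0.89 and -1.20), the former lost in 5 of the 8 fits with 1 library left out.

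**Figure D5:**
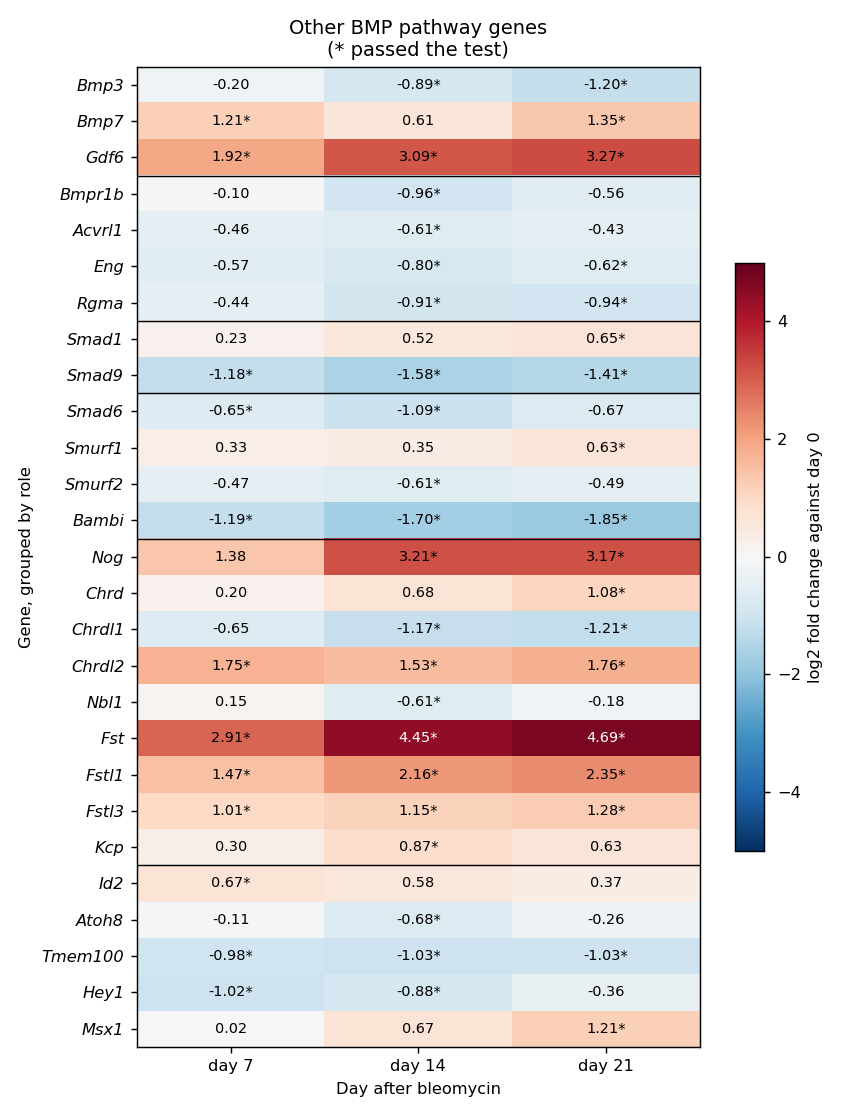
Log2 fold change against day 0 of the 27 other pathway genes that changed at 1 day or more, grouped by role and marked by an asterisk where the test was passed. Fst, Gdf6 and Nog stand out upward (up to 4.69 for Fst) and Bambi and Smad9 downward (down to -1.85 for Bambi).

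Targets other than Id1 and Id3 did not share 1 direction. Tmem100, an endothelial gene induced by BMP9 and BMP10 through ALK1, was at 433 to 599 CPM on day 0. It was at 210 to 295 CPM on day 7, 146 to 331 on day 14 and 195 to 341 on day 21, and fell at all 3 days (-0.98, -1.03 and -1.03). These calls were lost in 3 of 21, 1 of 21 and 2 of 19 alternatives, none of which left out a single library. Hey1, a target shared with Notch, fell on days 7 (-1.02) and 14 (-0.88) and was at -0.36 on day 21 (edgeR adjusted p 0.117). Atoh8 fell on day 14 (-0.68). Id2 rose on day 7 (0.67), and Msx1 rose on day 21 (1.21, lost in 4 of the 7 fits with 1 library left out). Id4 passed at no day.

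Of the 51 pathway calls against day 0, 16 held in all alternative fits. With glmTreat, which tests against the fold of 1.5 itself, left aside, 23 held in all, the 16 included. In 20 the call was lost when 1 library was left out. On day 7, Bmp7 was lost without day 0 replicate 2 or day 7 replicate 2, Chrdl2 without day 0 replicate 4, and Id2 without day 0 replicate 4 or day 7 replicate 1. Smad6 held on day 7 only without day 0 replicate 2 or day 7 replicate 4. On day 14, Acvrl1 was lost without replicate 1 of that day, Smurf2 without that library or day 0 replicate 1, and Bmpr1b without replicate 2 of either day. Atoh8 was lost without day 0 replicate 1 or day 14 replicate 2 or 4, Kcp without day 0 replicate 1 or 2 or day 14 replicate 3, and Nbl1 without day 0 replicate 2 or day 14 replicate 3. Chrdl2 was lost on day 14 without day 0 replicate 2, 3 or 4 or day 14 replicate 2, and Bmp3 held only without day 0 replicate 3 or day 14 replicate 3 or 4. On day 21, leaving out replicate 1 of that day lost Bmp3, Bmp7, Chrdl2, Eng, Smad1, Smurf1 and Msx1. The Chrd call was lost without day 21 replicate 2, and that of Chrdl2 also without replicate 3. Smurf1 was also lost without day 0 replicate 1 or 3 or day 21 replicate 2, and Msx1 without day 0 replicate 1, 2 or 4.

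The genes whose levels across the 15 libraries were most like each of the 9 were ranked by Pearson's r of log2 CPM among 11811 genes with a mean of at least 5 CPM. The libraries share the change between days, so the value of r within days, after each day's mean was removed, follows it in each pair of values. For Grem1 they were Thbs2 (r 0.970, 0.847 within days), which encodes a fibroblast matrix glycoprotein, Pth1r (0.967, 0.833) and Man2b1 (0.961, 0.762). For Bmper they were Slc20a2 (0.966, 0.895), Tbc1d1 (0.957, 0.863) and Mrc1 (0.953, 0.877), the last a macrophage mannose receptor. For Bmp6 they were Tnxb (0.981, 0.915), a tenascin, Kcns3 (0.970, 0.839) and Abi3bp (0.968, 0.849). Mid2 (0.954, 0.913), Rasal2 (0.952, 0.937) and Ttc28 (0.951, 0.863) were most like Bmpr2. Bmp4 was most like Aldh1a2 (0.906, 0.908), Upk3b (0.892, 0.900) and Cldn15 (0.856, 0.883), of which Upk3b marks the mesothelium, the cell layer that covers the lung. The 3 mesothelial markers Msln, Upk3b and Wt1 together summed to 150 to 255 CPM on day 0 and 93.0 to 390 on day 7. They summed to 359 to 881 CPM on day 14 and 370 to 613 on day 21, with 0, 1 and 1 higher and none lower. Their part in the Bmp4 level was not tested. Bmp5 was most like Pibf1 (0.927, 0.929), Plxdc2 (0.907, 0.946) and Epb41l1 (0.895, 0.815). Bmp2 was most like Slc46a3 (0.881, 0.619), Zfp667 (0.874, 0.462) and Hoxb5 (0.868, 0.469), the lowest values within days. For Id1 they were Trmt1 (0.865, 0.880), Dnajb5 (0.845, 0.837) and Atg16l1 (0.837, 0.873), and for Id3 they were Htra2 (0.847, 0.851), Hoxa3 (0.844, 0.835) and Cc2d1b (0.843, 0.791). Within the 9, Grem1 and Bmper had an r of 0.868 (0.684 within days), Bmp6 and Bmpr2 0.810 (0.651), Id1 and Id3 0.513 (0.435), and Bmp6 and Grem1 -0.833 (-0.431). These pairs kept their sign within days, but others turned. Among those were Bmp2 with Grem1 (-0.561, 0.577 within days), with Bmp6 (0.708, -0.244) and with Bmpr2 (0.612, -0.415).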

How the data were processed

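Reads of 15 mouse whole-lung libraries were trimmed by the authors with TrimGalore and aligned to mm10 (GRCm38) with HISAT2 2.1.0. Multi-mapped reads were left out, and raw counts per Ensembl gene from HTSeq 0.6.0 were deposited without normalization. The submitters' processing notes also name DESeq2 1.40.2. The strand setting and annotation release of the counting are not given in the sources used here. GENCODE M21 matched 33267 of 33340 identifiers, and the rest held 0.00889% of the counts. Groups and replicate numbers came from the titles.

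Counts were tested with edgeR 4.0.16 in R 4.3.3 (filterByExpr, TMM, glmQLFit, glmQLFTest) on all 15 libraries together, with a term for day and no other, and p-values were adjusted by Benjamini-Hochberg over 17457 genes. The common biological coefficient of variation was 22.8%. Thresholds were 0.05 for the adjusted p and 1.5 for the fold change. CPM values use TMM-scaled library sizes, log2 CPM a prior count of 2, and CPM per kb the union of exons. The number of libraries and 15652008 to 18020661 counts per library limit the precision. Alternatives were DESeq2 1.42.0, limma 3.58.1 voom, glmTreat, RLE factors, total counts, other filters, the compared groups alone, a replicate block, the mitochondrial share, and leaving out each library. A fit without libraries with over 100 CPM of cardiac markers was chosen after seeing the data. The edgeR steps were tested on simulated data. Figures used matplotlib 3.10.9.

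The 9 genes and all lists were chosen with earlier results of these data known. Named were the 9 genes, the pathway genes changed at 1 or more of the 3 comparisons with day 0, and for each of the 9 the 3 genes most like it (mean of at least 5 CPM, no Gm or Rik names). An item of the pathway list is not reported here and is in none of its counts. Smad4, Smad5 and Id4 were named after their values were seen.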

Additional observations from a re-analysis of the deposited data

Results flagged for a closer look

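Among 108 groups of 4 libraries examined over the 9 genes and the 27 named pathway genes, 8 held a library whose gap to its nearest neighbour was large for the range of the group (Dixon's test), where chance flags about 5%. Of the 9 genes only Bmper was among them, where day 14 replicate 1 held 108.9 CPM and the rest of that day 24.4 to 38.4. The same library held 15.2 CPM of Nog, against 3.68 to 5.42 CPM in the others. The remaining 6 were Bmp7 (0.847 CPM, day 0 replicate 2, beside 1.14 to 1.17), Chrdl2 (0.518 CPM, day 0 replicate 1, beside 0.127 to 0.181), Fstl3 (36.3 CPM, day 7 replicate 2, beside 21.0 to 22.2), Kcp (6.69 CPM, day 14 replicate 3, beside 3.83 to 4.11), Atoh8 (16.5 CPM, day 14 replicate 3, beside 10.2 to 11.3) and Hey1 (72.6 CPM, day 14 replicate 2, beside 45.1 to 46.1).

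The effects of 2 later days, each taken against day 0, differed for 8 of these 36 genes when the later days were tested directly by edgeR. The 27 pathway genes had been kept because they were called against day 0. Over all 41 pathway genes tested, 7.32% differed between days 7 and 14 and 12.2% between days 7 and 21, near the 6.0% and 9.54% of all genes. Between days 7 and 14 the log2 differences were -1.13 for Bmp6, 3.56 for Grem1, 1.84 for Nog and -0.76 for Nbl1. Between days 7 and 21 they were 4.48 for Grem1, 1.34 for Gdf6, 1.80 for Nog, 1.78 for Fst, 0.87 for Fstl1 and 0.65 for Hey1. Several of these calls were lost with 1 library left out. Between days 7 and 21 this was so in 5 of 7 such fits for Gdf6, Nog and Fst, 6 of 7 for Fstl1 and 4 of 7 for Hey1, and between days 7 and 14 in 5 of 8 for Nog and 2 of 8 for Grem1. A pathway gene called in no comparison with day 0, Gdf10, differed between days 7 and 14 (-1.11, edgeR adjusted p 0.0317), a call lost in 9 of 20 alternatives; it was named after its value was seen.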

How the results depend on the processing

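Of the 27 differences of the 9 genes from day 0, 9 kept their direction and their side of the threshold in all 19 to 21 alternatives, 7 lost the call in at least 1, 3 gained it and 8, none of them called, changed sign. Counts of changed genes among the 9 kept within 1.5 times under the other settings than these. On day 7 the count of 3 became 0 under glmTreat, 0 with the mitochondrial covariate and 0 without the 4 libraries with cardiac markers, and 0 to 2 with 1 library left out. On day 21 the count of 4 became 1 without the libraries with cardiac markers. Between days 7 and 14 the count of 2 became 0 under glmTreat, 1 under limma voom, 1 without the libraries with cardiac markers and 1 to 3 with 1 library left out. Between days 7 and 21 the count of 1 became 3 with these groups alone and 0 without the libraries with cardiac markers. The pathway counts of 12, 21 and 18 became 5, 7 and 7 under glmTreat, which tests against the fold of 1.5 itself. They became 6 on day 7 with the mitochondrial covariate and 10 on day 21 without the libraries with cardiac markers. Apart from glmTreat and the fits with fewer libraries, the cause was not tested.

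Signs turned for genes near 0. Bmp5 on day 7 was -0.14 with the mitochondrial covariate, -0.019 among libraries of low share and -0.049 without the libraries with cardiac markers, and Id1 on day 7 was 0.17 with the covariate and 0.090 among libraries of low share. Id3 on day 7 was 0.034 among libraries of low share and 0.11 without the libraries with cardiac markers. On day 14 Bmp4 was -0.14 without the libraries with cardiac markers, Id1 was -0.023 with the covariate and -0.17 among libraries of high share, and Id3 was -0.087 among the latter. On day 21 Id1 was -0.0013 with no filter. With 1 library left out, Bmp4 ranged from -0.13 to 0.041 on day 7 and from -0.035 to 0.15 on day 14, Id1 from -0.22 to 0.17 on day 14 and from -0.21 to 0.19 on day 21, and Id3 from -0.038 to 0.19 on day 14.

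Replicate numbers were tried as a block. Same-numbered libraries of different days had correlated deviations of -0.27 to 0.452 (median 0.0451 over 21 pairs, against -0.00847 for other pairs). As a hint from the data and not the design, 10 of 15 libraries correlated best with their own number. The numbers were not taken as pairs because the labels tie them to nothing shared and not every pair was over 0.1. The block gave 4 changed genes on day 7, adding Grem1 (3.17, adjusted p 0.044 by edgeR), and 5, 4, 2, 1 and 0 in the other comparisons. Day 0 Grem1 rests on 5 to 9 reads a library, which limits its fold change. The number of libraries limits the rest.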
